A study of Mus musculus with 8 samples.

Results

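The genes described here are the 36 listed members of the cholesterol and fatty acid synthesis program, chosen by name: enzymes of both pathways, the factors that control them, and genes of sterol transport and export. Of these, 34 had a row in the table of 19703 genes, and all 34 averaged at least 10 normalized counts, the filter for the 11083 genes tested. Acat2 and Acaca were not analysed here. The cells were mouse Tregs, regulatory T cells marked by the transcription factor FOXP3, sorted from Foxp3-GFP reporter animals titled WT. They were cultured to day 6 on beads carrying antibodies to CD3 and CD28, with Th17-polarizing cytokines (IL6, IL23, IL1B), either with FcCD70, an agent named for the CD27 ligand CD70 (3 libraries, numbered 1 to 3), or untreated (4 libraries, numbered 1 to 4). Reporter strain, beads and cytokines were the same in all libraries. The study asked what CD27 signalling does to Treg transcripts under these conditions. In each of the 8 labelled samples the title names one treatment and the treatment field the other. Grouping was by title; were the field right instead, each difference given here would have the opposite sign. Whether each sample is a different mouse is not in the labels, and the p-values therefore cover sample-to-sample spread that could be technical.

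Cholesterol is built from acetyl-CoA through mevalonate, isoprenoids and squalene. The genes of this chain are switched on together by SREBP2, a membrane-bound factor encoded by Srebf2. SREBP1, from Srebf1, acts more on the fatty acid genes. When membrane sterol is ample, INSIG proteins hold SCAP and its SREBP cargo in the endoplasmic reticulum. When sterol falls, SCAP carries SREBP to the Golgi, where proteases release the part that enters the nucleus. Liver X receptors (LXRs) do the opposite task: they sense oxysterols and raise the cholesterol exporters Abca1 and Abcg1 and the ubiquitin ligase Mylip. Activated T cells turn on the SREBP program to make the membrane that growth and division need.

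NF-Y, the factor that binds CCAAT boxes, is a usual partner of SREBP at these promoters. RefSeq windows of 250 bases before to 50 after the start (GRCm38.p6) were found for 28 of the 36 listed genes. Fdps, Fdft1, Sqle, Stard4, Scd1, Scd2, Fads1 and Abcg1 had no window. CCAAT, searched on both strands, was in a window of 21 of these 28 genes (75.0%), against 41.1% of 27025 genes with a window. The SREBP element TCACNCCAC was in 1 of the 28 (3.57%), Hmgcs1, against 1.44% of all genes. No other form of the SREBP site was searched, so this is not a count of SREBP sites. The E-box CACGTG was in 6 of the 28 (21.4%), against 8.09%. None of the letter strings overlapped in the stretches shown, and a match describes letters, not binding. The 250 bases before the start are given for Hmgcs1 and Mvk, synthesis genes rich in CCAAT, and for Abca1, the exporter whose values differed most between replicate numbers, which has no CCAAT there; capitals mark CCAAT or its reverse complement ATTGG, TCACCCCAC and CACGTG.
Hmgcs1 (chr13:119690101-119690350, plus strand): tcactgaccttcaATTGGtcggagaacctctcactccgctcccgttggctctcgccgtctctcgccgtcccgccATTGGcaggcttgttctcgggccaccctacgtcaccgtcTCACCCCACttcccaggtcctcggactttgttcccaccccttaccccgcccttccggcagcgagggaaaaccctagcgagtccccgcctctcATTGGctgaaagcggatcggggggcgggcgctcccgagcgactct
Mvk (chr5:114444019-114444268, plus strand): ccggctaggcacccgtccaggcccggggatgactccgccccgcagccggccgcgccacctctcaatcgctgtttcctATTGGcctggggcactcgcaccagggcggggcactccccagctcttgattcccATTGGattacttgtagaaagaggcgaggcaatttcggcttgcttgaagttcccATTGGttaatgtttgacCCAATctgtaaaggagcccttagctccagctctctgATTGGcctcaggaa
Abca1 (chr4:53159896-53160145, minus strand): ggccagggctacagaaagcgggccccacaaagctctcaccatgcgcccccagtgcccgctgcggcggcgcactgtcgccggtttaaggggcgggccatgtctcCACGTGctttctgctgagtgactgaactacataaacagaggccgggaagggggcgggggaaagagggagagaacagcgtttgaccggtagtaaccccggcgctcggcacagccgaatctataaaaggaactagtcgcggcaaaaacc
Hmgcs1 holds 3 CCAAT boxes and the SREBP element, which starts at base 114 of the stretch. Mvk holds 5 CCAAT boxes, and Abca1 has 1 CACGTG.

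The FcCD70 libraries held 18183470 to 23359331 reads assigned to genes, and the untreated ones 18159685 to 23527899. The 34 members together took 0.187% to 0.218% of reads with FcCD70 and 0.209% to 0.221% untreated. The FcCD70 library numbered 2 stood apart: it had 46.7 on the second principal component, against -11.8 to -5.13 in the other libraries, and its Foxp3 value was 2788 normalized counts, while the FcCD70 libraries numbered 1 and 3 had 5881 and 5948 and the untreated ones 4811 to 6585. The first component ran from -30.3 and -23.8 in the libraries numbered 1 to 24.1 and 24.6 in those numbered 3. All 6 Treg markers checked were measured, with summed normalized counts of 54432 to 68729 with FcCD70 and 64938 to 69401 untreated. The summed B cell markers (6 genes) were at 220.2 to 277 with FcCD70 and 253 to 368 untreated, the myeloid ones (3 of 6 with a row) at 63.5 to 105 and 91.3 to 121, and the CD8 and NK ones (5 genes, 1 of them at 0) at 503 to 855 and 389.5 to 804. Their part in the results was not tested. In such bulk libraries a smaller share of cells with a transcript and less of it per cell cannot be told apart.

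Day 6 Tregs carried transcripts of the whole chain. Levels between genes are compared per exon length, as RPKM (reads by exon length and library size), with exon lengths from GENCODE M21. Acly, which makes cytosolic acetyl-CoA from citrate, was highest with a mean of 49.2 RPKM over the 7 libraries (41.3 to 53.5). Srebf2 and Scd2, a stearoyl-CoA desaturase, followed with 33.9 RPKM each; their ranges (26.2 to 39.4 and 28.1 to 41.9) overlapped, and that of Scd2 reached into that of Acly. Elovl6, which lengthens palmitate, had 23.1 RPKM, the HMG-CoA synthase gene Hmgcs1 21.1 and the sterol isomerase gene Ebp 20.2, with overlapping ranges. Srebf1 had 14.8 RPKM (13.0 to 16.4), below the range of Srebf2. Of the desaturases, Scd1 had only 0.683 RPKM (0.356 to 1.44) against 33.9 for Scd2, and Fads2 0.296 (0.0167 to 1.32) against 6.44 for Fads1. Among the genes at the low end, Fdps, farnesyl diphosphate synthase, had 0.475 RPKM. Its transcripts share 26.2% of their 50-base stretches with other genes, the protein-coding Gm43738 and processed pseudogenes among them. How reads from shared stretches were counted is not given in the sources used here. The low value of Fdps may therefore not be its true level. Idi1 (25.3%), Fdft1 (26.5%) and Hmgcs1 (11.6%) also share more than 10%, part of it with genes on the opposite strand.

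**Figure D1:**
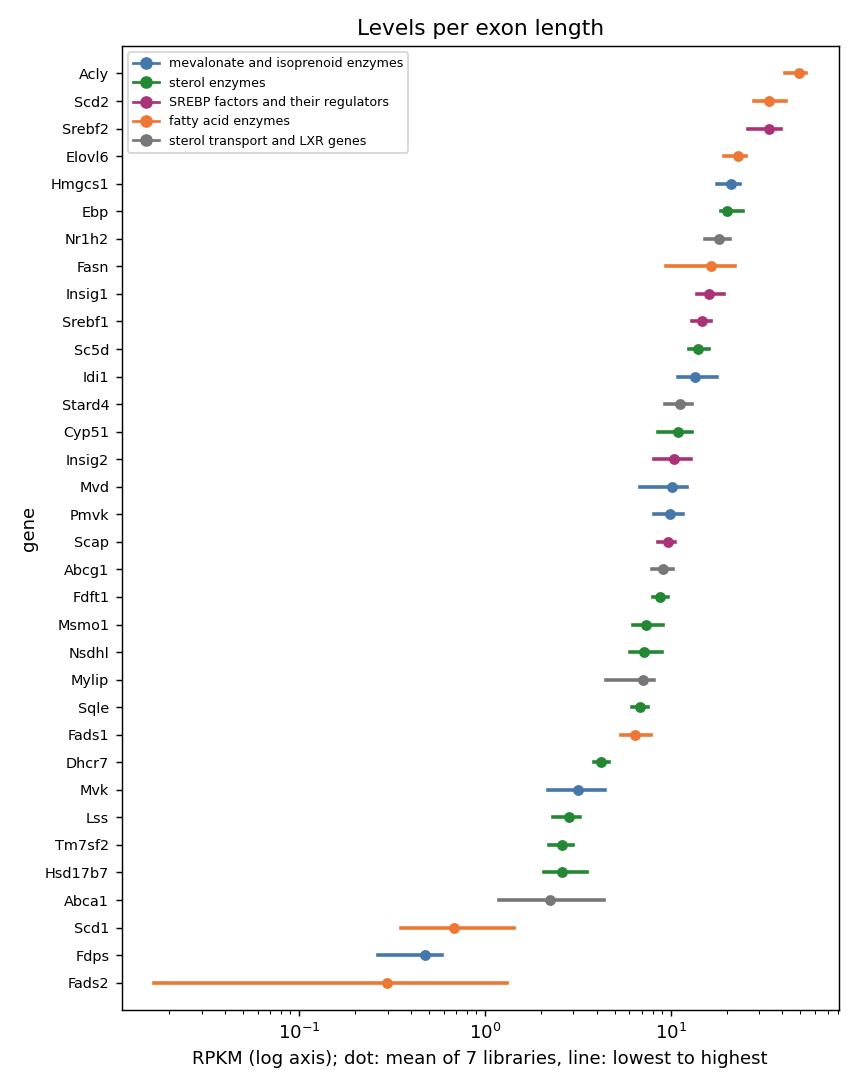
Level per exon length (RPKM, log axis) of the 34 members; dots are means over 7 libraries, lines run from the lowest to the highest library, colours are roles. Acly, Scd2 and Srebf2 lie at the high end, and Scd1, Fdps and Fads2 lie below 1 RPKM.

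For no member was a difference between FcCD70 and untreated libraries larger than the replicate spread by the test. With limma and the replicate number as a block, 0 of 34 members had an adjusted p under 0.05, as did 0 of the 11083 genes tested (0%). At an unadjusted p under 0.05 there were also 0 members, against 188 genes (1.70%). That share is below the 0.05 that the threshold would give with no differences at all. The count of 0 members therefore does not show that nothing changed. EdgeR and DESeq2 on the recovered reads called 0 members as well, with 0 genes and 1 gene called in all. Fold changes are FcCD70 minus untreated, on the log2(value + 1) scale, with adjusted p = 0.9998 in limma for each member. Of the 34 members 24 (70.6%) had a negative log2 fold change, against 50.9% of all genes tested, with a median of -0.071 against -0.0035. For 20 of 34 members the 95% interval lay within 0.5 of 0 on the log2 scale, as it did for 5762 of the 11083 genes tested.

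**Figure D2:**
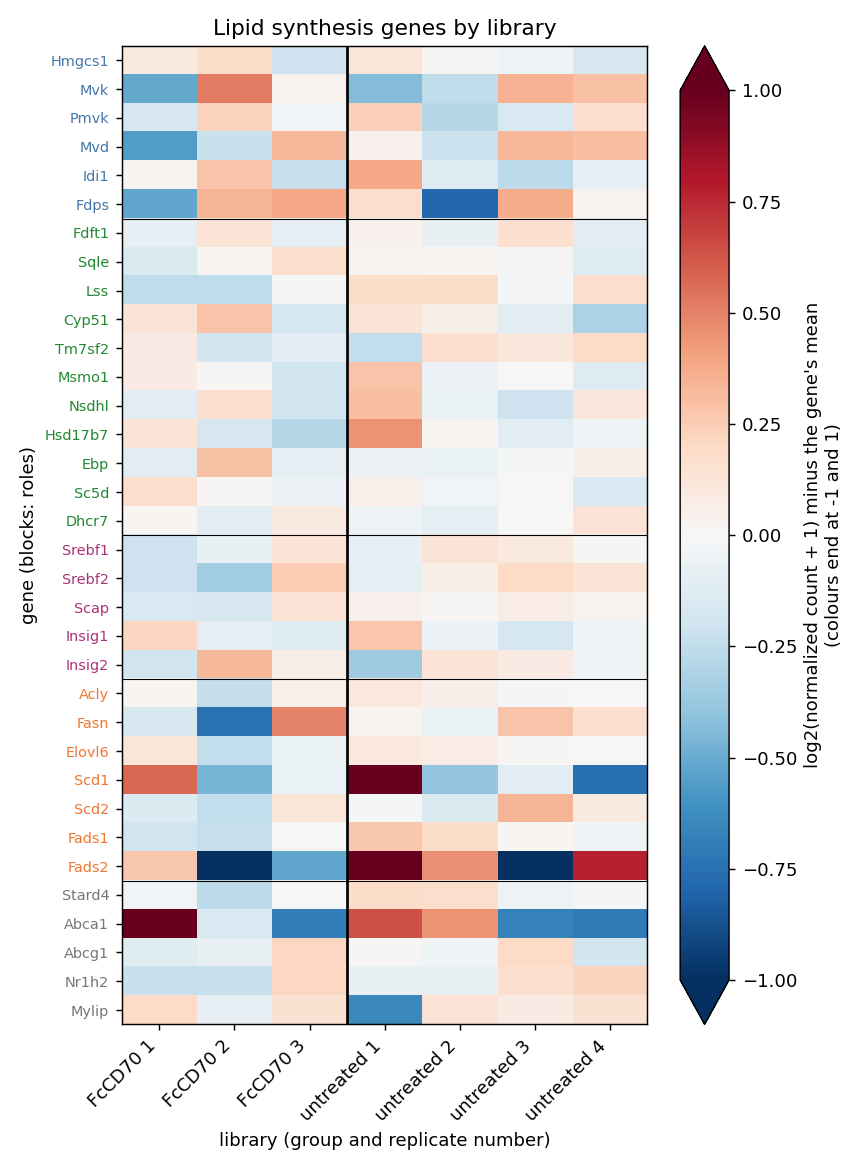
Each cell is a gene's log2(normalized count + 1) in 1 library minus its mean over the 7 libraries, with FcCD70 libraries left of the line and untreated ones right of it, and genes in blocks by role. The genes whose highest library is over 2 times the lowest, Mvk, Fdps, Fasn, Scd1, Fads2 and Abca1, vary most in colour.

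The SREBP factors and their regulators lay close to each other in the 2 groups. Srebf2 (chromosome 15, 82147181 to 82205379, plus strand, GRCm38) had 4226, 3848 and 5828 normalized counts in the FcCD70 libraries numbered 1 to 3, against 4592, 5095, 5609 and 5338 in the untreated libraries numbered 1 to 4. The FcCD70 values straddled the untreated ones, with the lowest in the library numbered 2. Its log2 fold change was -0.16 (SE 0.13, 95% interval -0.46 to 0.14), and -0.032 without either library numbered 2. Leaving out either one drops that pair from the fold change, so this value does not single out a library. Srebf1 had 1459, 1595 and 1850.1 with FcCD70, against 1590.1, 1836, 1797 and 1693 untreated, with a log2 fold change of -0.09 (SE 0.12). Scap, the escort of both factors, had 1308, 1297 and 1603 with FcCD70 and 1466 to 1525 untreated, at -0.10 (SE 0.13). Insig1, itself an SREBP target, had 1157, 939 and 914 with FcCD70, against 1206, 956, 884 and 967 untreated. In each of the 3 same-numbered pairs the Insig1 values were within 0.06 of each other on the log2 scale, and its log2 fold change was -0.01 (SE 0.13, 95% interval -0.30 to 0.28). Insig2, the second retention protein, had 633 to 909.8 with FcCD70 and 567 to 797 untreated.

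The mevalonate and isoprenoid enzymes had log2 fold changes between -0.20 and 0.15, 4 of 6 above 0. Hmgcs1 (chromosome 13, 119690379 to 119708260, plus strand), which makes HMG-CoA and carries the SREBP element shown above, had 2089, 2223 and 1689 normalized counts with FcCD70, against 2125, 1972, 1901 and 1747 untreated. The groups overlapped throughout, and its log2 fold change was -0.01 (SE 0.13, 95% interval -0.29 to 0.28). Mvd, the mevalonate diphosphate decarboxylase, had 255, 322 and 469 with FcCD70, against 386, 323, 472 and 462 untreated. Only the pair numbered 1 differed by more than 0.01 on the log2 scale, at -0.60. Mvk, mevalonate kinase, had 117, 241 and 172 with FcCD70, against 124, 140.3, 213 and 206 untreated, and was at 0.78 in the pair numbered 2. Pmvk, the next kinase, ran from 303 to 398 with FcCD70 and 279 to 402 untreated. Idi1, the isomerase of the 5-carbon unit, ran from 814 to 1159 and from 797 to 1248, and Fdps from 26.9 to 51.1 and from 22.2 to 50.5.

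The sterol enzymes held the only member whose groups did not overlap. Lss (chromosome 10, 76531588 to 76557138, plus strand), the cyclase that forms lanosterol, had 515, 516 and 607 normalized counts with FcCD70, against 699.8, 701, 608 and 697 untreated. The gap between the groups was that between 607 and 608, both in libraries numbered 3. Its log2 fold change was -0.30 (SE 0.16, 95% interval -0.65 to 0.06), with an unadjusted limma p of 0.0895. Groups that do not overlap, with FcCD70 lower, were found for 1 of 34 members (2.94%), against 1.18% of all genes tested, and with FcCD70 higher for 0 members, against 1.34%. A gene on the opposite strand overlaps Lss, as is so for 10 members in all, and the strand setting of the counting is not given in the sources used here.

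Sqle, squalene epoxidase, had 695, 783 and 868 with FcCD70, against 789, 777, 776 and 704 untreated, at -0.0036 on the log2 scale (SE 0.14, 95% interval -0.32 to 0.32). Its untreated values lay inside the FcCD70 range. Hsd17b7, a ketone reductase of the chain, had 291, 237 and 219 with FcCD70, against 364, 271, 247 and 259 untreated. It was lower in 3 of 3 pairs, while the groups overlapped, with a log2 fold change of -0.23 (SE 0.18). Lower values in 3 of 3 pairs were found for 5 members (14.7%), namely Lss, Hsd17b7, Mvd, Scd2 and Fads1, against 9.61% of all genes tested, and higher values in 3 of 3 for 0 members, against 9.03%. The other 8 sterol enzymes had log2 fold changes between -0.11 and 0.08. Cyp51, the lanosterol demethylase, ran from 850.1 to 1170.4 with FcCD70 and from 771 to 1055 untreated. Msmo1 and Nsdhl, which with Hsd17b7 remove the methyl groups at carbon 4, ran from 798 to 969 and 359.8 to 462 with FcCD70, and from 836 to 1116 and 357 to 509 untreated. Sc5d and Dhcr7, late enzymes of the chain, varied little, with the highest library 1.25 and 1.20 times the lowest. Fdft1, squalene synthase, ran from 703 to 821 with FcCD70 and from 694 to 842 untreated, the reductase Tm7sf2 from 203 to 245 and from 195 to 266, and Ebp from 873 to 1157 and from 900.1 to 987.

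All 7 measured fatty acid enzymes had negative log2 fold changes, and none passed the test. The lowest, -1.42, was that of Fads2, which passed the filter only through its high untreated library numbered 1. The others ran from -0.30 for Fads1 to -0.11 for Acly. Fads1 (chromosome 19, 10182888 to 10196877, plus strand), the delta-5 desaturase of polyunsaturated fatty acids, had the smallest p among the members. Its normalized counts were 542, 532 and 619.9 with FcCD70, against 752, 709, 631 and 604 untreated. The group ranges met only at the FcCD70 library numbered 3 and the untreated library numbered 4. The log2 fold change was -0.30 (SE 0.15, 95% interval -0.65 to 0.04), with an unadjusted limma p of 0.08, and lay between -0.44 and -0.22 with any 1 library left out. Fads2, the neighbouring delta-6 desaturase gene, had 11.4, 1.12 and 6.17 with FcCD70, against 86.9, 13.1, 1.94 and 16.5 untreated. The FcCD70 value numbered 2 and the untreated value numbered 3 lay below the 3-read floors of their libraries, 3.37 and 2.91 normalized counts. Its log2 fold change of -1.42 (SE 0.92, 95% interval -3.49 to 0.64) went with differences of -2.83, -2.73 and 1.29 in the 3 pairs. It lay between -2.78, without either library numbered 3, and -0.72, without the FcCD70 library numbered 1, and was -0.77 without either library numbered 2 and -0.71 with TMM scaling.

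Fasn (chromosome 11, 120805846 to 120824547, minus strand), the synthase that makes palmitate, had 3182, 2121 and 5027 normalized counts with FcCD70, against 3629, 3388, 4339.9 and 3975 untreated. The lowest and the highest of the 7 values were both in FcCD70 libraries. Its log2 fold change was -0.22 (SE 0.17), and 0.011 without either library numbered 2. Scd2 had 3378, 3136 and 4057 with FcCD70, against 3685, 3360.3, 4708 and 3952 untreated, at -0.15 (SE 0.12, 95% interval -0.41 to 0.12). Scd1, its low neighbour on chromosome 19, had 91.1, 43.8 and 58.2 with FcCD70, against 141, 46.4, 56.3 and 35.7 untreated. The high values belonged to the libraries numbered 1 in both groups. The log2 fold change of Scd1 was -0.22 (SE 0.32, 95% interval -0.93 to 0.49). In the authors' deposited results it was 0.29 (SE 0.40), turned to FcCD70 minus untreated. Their mean differed by over 1% from the mean of these 7 libraries for 52.6% of genes tested. Their fit may therefore not rest on these 7 libraries alone. The fold change from the 7 libraries was -0.018 without either library numbered 1 and -0.35 without either library numbered 3. Acly had 4449 to 5449.8 with FcCD70 and 5216 to 5646 untreated, and Elovl6 2534 to 3274 and 2992 to 3234. In both the low end was the FcCD70 library numbered 2.

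Sterol transport and LXR genes had log2 fold changes between -0.20 and 0.23. Stard4, a carrier of cholesterol between membranes, had 1253, 1066 and 1273 normalized counts with FcCD70, against 1451, 1441, 1234 and 1264 untreated. Its log2 fold change was -0.20 (SE 0.14), and -0.084 without either library numbered 2. Abcg1, an exporter, had 1236, 1275 and 1545 with FcCD70, against 1356, 1303, 1539 and 1182 untreated, at -0.05 (SE 0.12, 95% interval -0.33 to 0.23). Nr1h2, which encodes LXR-beta, had 1053 to 1422 with FcCD70 and 1168 to 1434 untreated. Mylip, the ligase that marks lipoprotein receptors for degradation, had 524, 431 and 506 with FcCD70, against 291, 504, 483 and 507 untreated. Its positive log2 fold change of 0.23 (SE 0.21) went with the low untreated value numbered 1, the pairs lying at 0.85, -0.22 and 0.07.

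**Figure D3:**
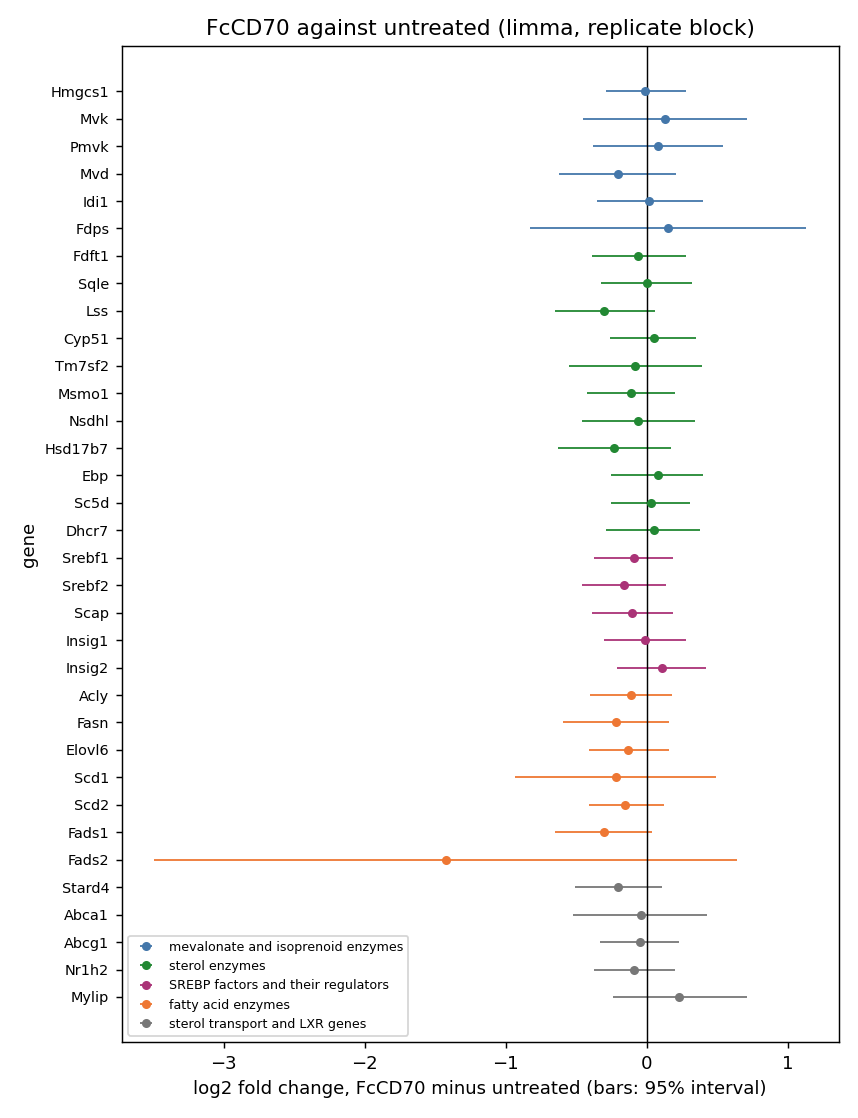
Log2 fold change, FcCD70 minus untreated, of the 34 members with 95% intervals from limma with the replicate block, coloured by role. Every interval includes 0; that of Fads2, a gene of few reads, runs from -3.49 to 0.64.

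The differences depended on the pair. Between the libraries numbered 1, 27 of 34 members (79.4%) were lower with FcCD70, with a median log2 difference of -0.13. Between those numbered 2, 21 (61.8%) were lower, with a median of -0.06, and between those numbered 3, 16 (47.1%), with a median of 0.01. The medians of all genes tested were 0 in each pair, with 50%, 50.3% and 49.7% lower. The mevalonate and isoprenoid enzymes changed sides: 6 of 6 were lower with FcCD70 in the pair numbered 1 (median -0.38), 1 of 6 in the pair numbered 2 (median 0.46) and 3 of 6 in the pair numbered 3 (median 0). The fatty acid enzymes were lower in 6, 7 and 3 of 7, with medians of -0.19, -0.32 and 0.05. In the pair numbered 2, whose FcCD70 library stood apart, these 2 arms of the program lay on opposite sides of 0; that difference was not tested. Without that library, in a fit that rests on the other 2 pairs, 27 members had negative log2 fold changes and their median was -0.065.

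**Figure D4:**
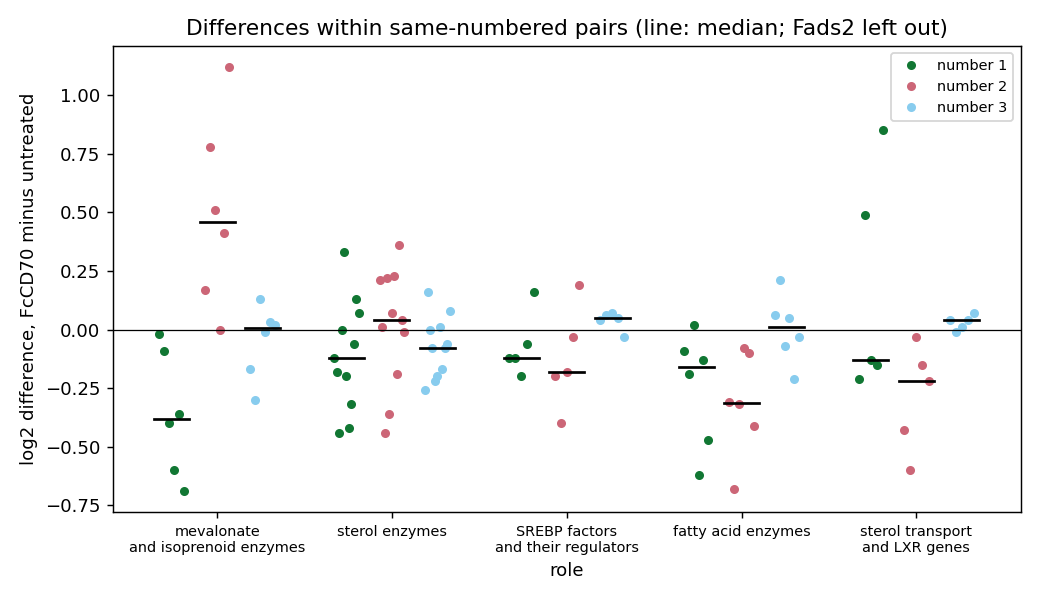
Log2 difference, FcCD70 minus untreated, of each member within the same-numbered pairs 1 to 3, by role; the black lines are medians of the genes drawn, and Fads2 is left out. The mevalonate genes lie below 0 in pair 1 and mostly above 0 in pair 2, where the fatty acid genes lie below 0.

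The members differed between replicate numbers about as other genes did. Their values had a median SD of 0.20 on the log2 scale over the 7 libraries, against 0.21 for all genes tested. In 28 of 34 members the highest library was under 2 times the lowest, as in 8523 of the 11083 genes tested. In limma's F test of the replicate number, 0 of 34 members passed, against 15 of 11083 genes (0.135%). At an unadjusted p under 0.05 there were 3 members (8.82%), Abca1, Scd1 and Fasn, against 8.02% of genes. EdgeR called 0 members and 0 genes, and DESeq2 called 1 member, Abca1, and 237 genes (2.14%). None passed with a pseudocount of 0.5 (0.0993% of genes), a mean of at least 50 (0.122%) or TMM scaling (0.0180%). The labels do not say what the number marks.

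Abca1 (chromosome 4, 53030787 to 53159895, minus strand), the exporter that loads cholesterol onto apolipoproteins, had the smallest p. It had 909 normalized counts with FcCD70 and 649 untreated in the libraries numbered 1, 374 and 567 in those numbered 2, 257 and 259 in those numbered 3, and 254 in the untreated library numbered 4. The libraries numbered 1 and 2 all lay above those numbered 3 and 4, while FcCD70 and untreated libraries overlapped. The number had an unadjusted p of 0.000657 and an adjusted p of 0.124 in limma, and an adjusted p of 2.05e-05 in DESeq2. FcCD70 against untreated gave -0.04 on the log2 scale (SE 0.21, 95% interval -0.52 to 0.43), and 0.24 without either library numbered 2. With any 1 library left out, the adjusted p of the number in limma lay between 1.61e-19 and 0.0821, the lowest without the FcCD70 library numbered 2, a fit with 1 residual degree of freedom.

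Scd1 followed with an adjusted p of 0.421, then Fasn with 0.472 and Scd2 and Mvd with 0.698 each. Insig2 had 0.702, Fads2 0.753 and Nr1h2 0.757. Fasn, Srebf2, Nr1h2, Scd2 and Mvd had their higher values at the numbers 3 and 4. Hmgcs1 and Cyp51, like Abca1, had theirs at the numbers 1 and 2. Hmgcs1 had 1972 to 2223 there, against 1689 to 1901 at the numbers 3 and 4, and Cyp51 1002 to 1170.4 against 771 to 896. Their adjusted p in limma's F test was 0.878 and 0.763. The Fasn values were 5027 with FcCD70 and 4339.9 untreated at number 3 and 3975 at number 4, against 2121 to 3629 at the numbers 1 and 2. Srebf2 had 5828 and 5609 at number 3 and 5338 at number 4, against 3848 to 5095 at the numbers 1 and 2. Leaving out a library of the pair numbered 2 moved the count of calls most. Such a fit has 1 residual degree of freedom and 1 library left at that number, which limits what its calls mean. Without its FcCD70 library 8 members passed (23.5%), against 16.5% of genes: Abca1, Fasn, Idi1, Mvd, Nr1h2, Scd1, Scd2 and Srebf2. Without the untreated library numbered 2, 15 members passed (44.1%), against 38.6% of genes. Leaving out the FcCD70 library numbered 1 (1.13% of genes) or 3 (1.02%), or the untreated library numbered 1 (0.758%) or 3 (1.31%), gave 1 member, Abca1, and without the untreated library numbered 4 (0.262%) 0 members passed.

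**Figure D5:**
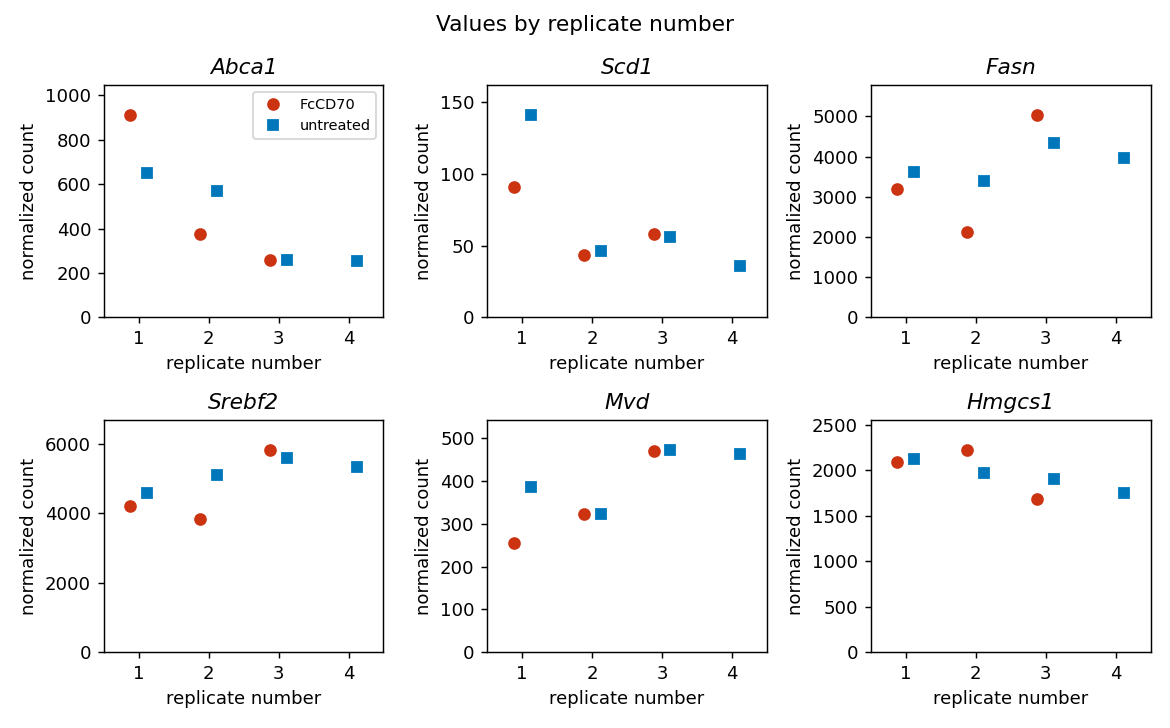
Normalized counts of 6 members by replicate number, with FcCD70 libraries as circles left of untreated squares; the vertical axes start at 0. Abca1 is higher at the numbers 1 and 2 than at 3 and 4, Fasn and Srebf2 are lower there, and Hmgcs1 is slightly higher there.

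Among genes around the pathway, limma called 0 in each of 7 further lists; at an unadjusted p under 0.05 there was 1 of 69 genes (1.45%), Pdss1, against 1.70% of all genes tested. For FcCD70 against untreated, 10 of 14 genes of SREBP cleavage, degradation and partner factors lay below 0 (median -0.05), and the ligase gene Syvn1 had the smallest p, with 737, 576 and 796 normalized counts with FcCD70 against 823 to 855 untreated. Of 9 isoprenoid branch genes 4 lay below 0 (median 0.01). Pdss1, which makes the side chain of ubiquinone, had 94.3, 107 and 62.6 with FcCD70, against 188, 134, 94.2 and 105 untreated, at -0.63 on the log2 scale (SE 0.26, 95% interval -1.21 to -0.05) and an adjusted p of 0.9998 in limma. Cholesterol storage and trafficking genes lay below 0 in 10 of 12 (median -0.07, lowest -0.42 for Soat2), with the smallest p for Gramd1b at -0.26. The other fatty acid synthesis and elongation genes (11 of 14 tested, 6 below 0, median -0.01, lowest -0.93 for Acacb) had the smallest p for Elovl7 at -0.57, and those of acyl-CoA and glycerolipid synthesis (6 of 10 below 0, median -0.02) for Gpam at -0.17. Fatty acid oxidation genes (10 of 11 tested, 6 below 0, median -0.03) had the smallest p for Acaa2 at 0.18, and oxysterol and LXR partners (3 of 6 tested, 2 below 0, median -0.06) for Rxra at -0.11. Soat2 and Acacb are named for their size, after their values were seen.

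By replicate number, Dgat2, a triglyceride-forming acyltransferase, came nearest the threshold in these lists. Its values were 553 with FcCD70 and 506 untreated at number 1, 369.6 and 308 at number 2, 131 and 183 at number 3, and 122 at number 4, with an adjusted p of 0.057 in limma's F test. Its groups by treatment overlapped, with a log2 fold change of -0.03 (SE 0.21).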

How the data were processed

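RNA of the sorted cells was sequenced after a stranded TruSeq mRNA preparation, per the labels' protocols. The submitters' processing notes list GRCm38.p4 and the tools TopHat2, SAMtools, HTSeq and DESeq2; neither settings nor an annotation release could be taken from them. The deposited library columns are a signal: per the values, the authors scaled read counts by a library-wide factor, since 100% of values were whole multiples of 1 step (within 0.01). The deposited log2 fold changes, scores (Wald statistics and standard errors) and p-values are the authors' DESeq2 results, and their sign was turned where printed.

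Columns were tied to samples by the titles, and those without FcCD70 in their name were taken as the untreated samples of the same number; the sample titled FcCD70 and numbered 4 is not analysed here. As the values were not raw counts, limma (3.58.1, with a trend) was run on log2(value + 1), keeping genes that averaged at least 10. The replicate number was a block because the deposited results are called paired. With no FcCD70 library of number 4 in the fit, fold changes rest on 3 pairs with 2 residual degrees of freedom. P-values were Benjamini-Hochberg adjusted over all genes, with a threshold of 0.05. The F test covers the numbers 1 to 4. EdgeR (4.0.16) and DESeq2 (1.42.0) on recovered reads, no block, other pseudocounts, filters, TMM scaling and leaving out each library were alternatives. The tests were tried on simulated data. RPKM used the recovered reads and GENCODE M21 exon lengths. A floor is 3 reads.

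The members and lists were chosen with earlier results of these data known. Fold changes are given in full for the 8 members with the smallest p and for Srebf1, Srebf2, Scap, Insig1, Hmgcs1, Sqle, Fasn, Scd1, Scd2, Abca1 and Abcg1, F tests for the 8 with the smallest p, and 1 gene per further list. Hsd17b7, Stard4, Fads1, Fads2 and Lss came in by their p. Mylip and Mvd were described further after their values were seen, as were Hmgcs1 and Cyp51 by replicate number.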

Additional observations from a re-analysis of the deposited data

Results flagged for a closer look

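In the untreated group of 4 libraries, 3 of the 34 members had a single library far from the others, or 8.82%, against 4.44% of all 11083 genes tested by the same rule; chance flags about 1 in 20 groups. Mylip was at 291 normalized counts in the untreated library numbered 1, against 483 to 507 in the other untreated libraries. Lss was at 608 in the untreated library numbered 3, against 697 to 701. Sqle was at 704 in the untreated library numbered 4, against 776 to 789.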

How the results depend on the processing

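Under each alternative run, 0 members were called for FcCD70 against untreated. The number of members below 0 stayed between 19 (no replicate block) and 27, and their median between -0.084 and -0.027. Across all genes DESeq2 called 1 gene and leaving out 1 library gave 0 to 20, the highest without the FcCD70 library numbered 2; 7 were called without the FcCD70 library numbered 3, 5 without the untreated one numbered 3 and 19 without the untreated one numbered 2. For the replicate number the count of genes was 0 with no filter, 2 with TMM, 0 with edgeR and 237 with DESeq2, and leaving out 1 library gave 29 to 4269 genes and 0 to 15 members, against 1 member with DESeq2; the cause was not tested. Without the replicate block the log2 fold changes turned positive for Insig1 (0.0019), Hmgcs1 (0.041), Sqle (0.034), Scd1 (0.028), Abca1 (0.17) and Abcg1 (0.0068), and Sqle did with TMM (0.0035); all had been within their SE of 0. With 1 library left out, Insig1 ran from -0.043 to 0.011, Hmgcs1 from -0.098 to 0.074, Sqle from -0.086 to 0.086, Fasn from -0.43 to 0.011 and Abca1 from -0.31 to 0.24. Those of Scap (-0.19 to -0.052), Srebf1 (-0.16 to -0.041), Srebf2 (-0.26 to -0.032), Stard4 (-0.32 to -0.084) and Abcg1 (-0.082 to -0.013) stayed negative. Deviations of same-numbered libraries from their group means correlated across genes at 0.303, 0.0144 and 0.435 for the numbers 1, 2 and 3. The number 2 holds the FcCD70 library that stood apart, so its low correlation cannot tell whether these libraries are a pair. The block changed no member's call. In the blocked fit, leaving out a library also drops its partner from the fold change, and without the untreated library numbered 1 Fads2 was not tested. Fads2, Fdps and Scd1 have few reads, which limits what could be seen for them.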
